A study of Mus musculus with 3 samples.

Results

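The Dusp, Sprouty and Spred genes and Rasa1 encode proteins that turn down signaling from receptor tyrosine kinases through Ras and the mitogen-activated protein kinases (MAPKs), and their RNA was measured on endothelial ribosomes of the mouse heart. The 10 genes Dusp1, Dusp3, Dusp4, Dusp6, Spry1, Spry2, Spry4, Spred1, Spred2 and Rasa1 were chosen by name from a deposited table of 17583 genes, and all 10 were found in it. The libraries came from the hearts of 3 EC-RiboTag mice, genotype Cdh5-CreERT2;Rpl22tm1.1Psam, in which a Cre recombinase under the control of the endothelial Cdh5 gene, induced with tamoxifen, switches the ribosomal protein RPL22 to a form with a hemagglutinin tag. Tagged ribosomes were immunoprecipitated from heart homogenates, and their RNA was read from 1 end over 72 bases. All 3 libraries belong to 1 group and are described as biological replicates, so no condition was compared with another. The sample labels place the hearts at day 7 after coronary ligation, whereas the study's description of the RiboTag procedure mentions no infarction, and Rz in the titles is not explained by the labels. Elsewhere the study uses RZ for the remote zone of the infarcted heart and describes a PCR measurement on EC-RiboTag RNA of that zone at day 7, and from these sources a remote-zone and a whole-heart origin of the 3 libraries cannot be told apart. The labels give no age. Input RNA was not analysed here, so all values are levels within the immunoprecipitate and not enrichments over heart tissue.

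In endothelial cells, growth factor receptors such as those for VEGF and FGF activate the small G protein Ras, which starts a chain of kinases ending in ERK. The dual-specificity phosphatases (DUSPs) remove phosphates from ERK, p38 or JNK, whereas Sprouty and Spred proteins act above them, between the receptor and the RAF kinases, and Rasa1 (p120 RasGAP) returns Ras to its inactive form. Several of these genes are themselves induced by ERK, which closes a negative feedback loop, and loss of RASA1 in people leads to malformed capillaries and arteriovenous connections.

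The values are normalized counts, that is, reads per gene divided by a factor for the library and rounded. They summed to between 7149102 and 7268785 per library, and about 6755000 to 7566000 reads were estimated to lie behind them. Duplicate reads had been removed, so a transcript cannot give many more reads than it has bases, and levels of different genes are compared only per 1000 bases of the Ensembl canonical transcript (per kb). Dividing by length does not lift this limit, so ratios among the highest genes can fall short of those of their RNA, which was not tested. Per kb, all 12 endothelial marker genes lay above the 90th percentile of the 14395 genes of known length averaging 10 or more. Their extremes were Eng, a TGF-beta coreceptor, with 809.4 ± 5.8 per kb (SD, n = 3 mice), and Emcn, a sialomucin, with 460.8 ± 16.9. Of 10 cardiomyocyte markers, 6 were above this percentile too, and the whole list ran from the myosin light chain Myl2 with 819.2 ± 78.5 per kb to the sarcomere gene Ttn, which with 78.5 ± 14.2 lay below the median of all genes. None of the 8 fibroblast, 7 measured leukocyte and 8 mural cell markers was above it. The extremes were Lum (187.7 ± 62.8 per kb) and Tcf21 (18.2 ± 8.8) for fibroblasts and Rgs5 (134.1 ± 13.6) and Myh11 (19.8 ± 16.0) for mural cells. The highest leukocyte marker was Lyz2 (72.6 ± 8.9 per kb), and the T cell gene Cd3e was not in the table. The share of each feedback gene's RNA that came from endothelial cells was not tested. For a marker list, fewer cells, less RNA per cell and the removal of untagged ribosomes by the immunoprecipitation cannot be told apart.

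The starts of 5 of these genes are shown because the comparisons of levels set the inducible phosphatases Dusp1 and Dusp6 beside the small phosphatase Dusp3, and Spry1 beside Spry2. Promoter sequences of 8 of the 10 members were found in a RefSeq table of GRCm38.p6. Each of the 5 shown runs from 250 bases before to 50 bases after the RefSeq start, 5′ to 3′ on the gene's strand, and had a single exact match in GRCm39 within or near its gene, at chr17:26727397-26727696 (minus strand) for Dusp1, chr11:101875568-101875867 (minus) for Dusp3, chr10:99098843-99099142 (plus) for Dusp6, chr3:37693846-37694145 (plus) for Spry1 and chr14:106134204-106134503 (minus) for Spry2. Capitals mark every match, on either strand, of TGACG (the core of the site for CREB family factors), GGGCGG (the GC box), CCAAT and CCGGAA (an ETS-type site).
Dusp1: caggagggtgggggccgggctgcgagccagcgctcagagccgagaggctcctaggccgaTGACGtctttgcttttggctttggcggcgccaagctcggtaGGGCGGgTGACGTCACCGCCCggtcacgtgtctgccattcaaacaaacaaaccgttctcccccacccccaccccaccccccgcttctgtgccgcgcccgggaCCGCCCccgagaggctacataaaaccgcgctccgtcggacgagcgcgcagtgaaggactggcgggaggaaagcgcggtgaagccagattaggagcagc
Dusp3: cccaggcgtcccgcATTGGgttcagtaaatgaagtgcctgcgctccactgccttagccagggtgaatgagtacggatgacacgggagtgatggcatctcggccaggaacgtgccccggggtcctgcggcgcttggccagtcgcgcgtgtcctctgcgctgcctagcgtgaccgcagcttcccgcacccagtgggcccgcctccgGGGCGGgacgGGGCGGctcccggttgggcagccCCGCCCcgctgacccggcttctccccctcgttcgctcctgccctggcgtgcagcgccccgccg
Dusp6: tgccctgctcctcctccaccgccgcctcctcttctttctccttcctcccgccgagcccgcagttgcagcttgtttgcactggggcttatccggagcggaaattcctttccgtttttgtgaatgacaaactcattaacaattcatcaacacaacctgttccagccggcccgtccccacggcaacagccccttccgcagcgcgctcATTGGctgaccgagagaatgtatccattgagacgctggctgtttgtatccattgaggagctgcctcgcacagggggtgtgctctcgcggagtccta
Spry1: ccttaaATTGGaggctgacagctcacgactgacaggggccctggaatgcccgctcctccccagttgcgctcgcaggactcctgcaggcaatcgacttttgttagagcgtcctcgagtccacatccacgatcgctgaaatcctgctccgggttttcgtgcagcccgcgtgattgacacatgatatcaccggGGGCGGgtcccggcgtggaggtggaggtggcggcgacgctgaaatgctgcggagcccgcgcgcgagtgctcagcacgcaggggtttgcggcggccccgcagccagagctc
Spry2: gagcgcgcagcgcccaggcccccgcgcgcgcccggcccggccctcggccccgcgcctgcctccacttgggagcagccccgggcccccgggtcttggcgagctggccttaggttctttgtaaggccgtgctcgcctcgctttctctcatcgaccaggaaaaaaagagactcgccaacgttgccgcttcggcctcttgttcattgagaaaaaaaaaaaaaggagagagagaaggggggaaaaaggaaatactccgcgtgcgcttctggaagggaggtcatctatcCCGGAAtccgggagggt

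Dusp1 was the only one of the 8 members with a promoter in the table that held the full palindrome TGACGTCA, which begins 143 bases before the start and which 1.79% of the 32851 promoters of the table hold. It lies between GGGCGG matches, and a further TGACG begins 191 bases before the start. TGACG was present in 20.8% of all promoters, and among these members Spred2 held it as well. GGGCGG was found in 35.7% of all promoters and in those of Dusp1, Dusp3 and Spred1 (3 matches each), Rasa1 (2 matches), and Spry1 and Spred2 (1 match each), but not in those of Dusp6 and Spry2. CCAAT, present in 37.4% of all promoters, was found once each in Dusp3, Dusp6, Spry1 and Spred2. CCGGAA, present in 14.9%, was found in Spry2 and Rasa1. TATAAA (13.6% of all promoters) and the CArG box of serum response factor (1.63%) matched in none of the 8. The 8 promoters held between 17 and 40 CG dinucleotides each, against a median of 7 over all promoters. Relative to the RefSeq start, the canonical transcript of the annotation starts at -539 for Spry2, so that the letters shown lie within the span of that transcript, and at -199 for Spry1, so that most of the letters shown, the GGGCGG among them, do too. A match is a string of letters, and no binding was measured.

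Seen per kb, most feedback regulators were among the more abundant ribosome-bound RNAs, and Dusp4 was not. The median of the 10 members was 331.0 per kb, against 106.5 over the 14395 genes, and 9 of the 10 lay above that median. The median of the members' percentiles was 87.1. Above the 90th percentile were 4 members, Dusp1, Dusp3, Spry1 and Dusp6, where the percentile by its construction takes 10.0% of all genes.

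**Figure D1:**
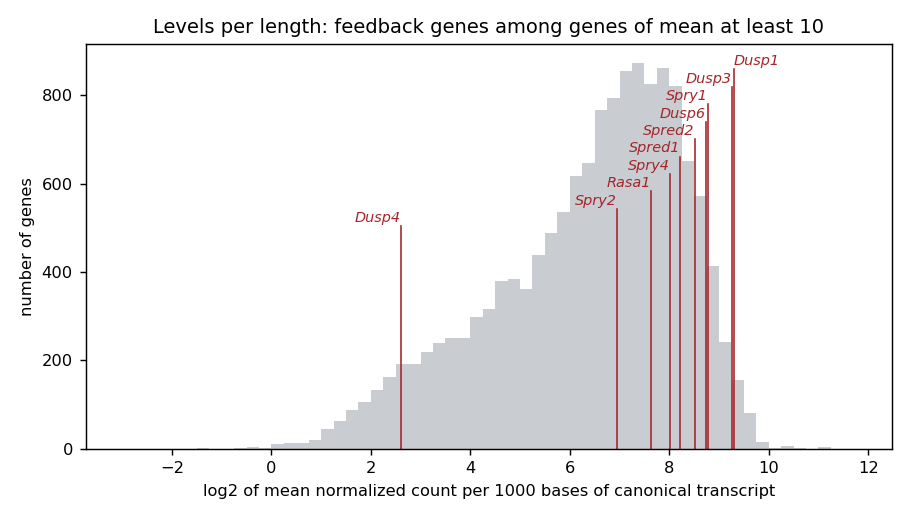
Histogram of the log2 of the mean normalized count per 1000 bases of canonical transcript over all genes averaging 10 or more (x axis, log2 scale; y axis, number of genes), with a red line at each feedback gene. Dusp1 and Dusp3 lie at the upper end, 7 further members lie between them and the middle of the distribution, and Dusp4 lies far to the left, at percentile 5.09.

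Among the phosphatases, Dusp1 and Dusp3 stood highest. Dusp1 (ENSMUSG00000024190, chromosome 17, minus strand, 26724564 to 26781102 in GRCm39), the inducible nuclear phosphatase of p38, JNK and ERK, had 1285, 1180 and 1279 normalized counts, given here and throughout in the order of mice 1 to 3. The counts of the 3 mice lay close together, with a mean of 1248 ± 59.0 (SD, n = 3), which is 627.1 ± 29.6 per kb of a canonical transcript of 1990 bases and percentile 98.4. The interval given for Dusp1 in the table is far longer than its canonical transcript, which ends at 26727493, and all annotated exons together cover 3324 bases.

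Dusp3 (ENSMUSG00000003518, chromosome 11, minus strand, 101861969 to 101877839) encodes VHR, a small phosphatase of ERK and JNK that lacks the kinase-binding domain of the larger DUSPs. Its normalized counts were 2645, 2571 and 2537, the highest of the 10 genes in every mouse, with a mean of 2584 ± 55.2 (SD, n = 3). Only 555 of the 4212 bases of its canonical transcript are coding, and 3594 bases belong to the 3′ untranslated region. Per kb it had 613.6 ± 13.1, and its range over mice overlapped that of Dusp1.

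Dusp6 (ENSMUSG00000019960, chromosome 10, plus strand, 99099093 to 99103351), the cytoplasmic phosphatase specific for ERK and a standard readout of ERK activity, had 1219, 1233 and 1159 normalized counts. None of its 3 mice stood apart, and the mean was 1204 ± 39.3 (SD, n = 3), or 425.0 ± 13.9 per kb (percentile 93.3). Per kb, Dusp1 exceeded Dusp6 1.47-fold (log2 ratio 0.56 ± 0.10, SD, n = 3) and Dusp3 exceeded Dusp6 1.44-fold (0.53 ± 0.04), with the same order in 3 of 3 mice for each pair. Dusp1 and Dusp3 lie nearer the limit set by the removal of duplicates, so both ratios can be too small, which was not tested. Over the length of all annotated exons, the ratio of Dusp1 to Dusp6 came to 1.06-fold, and the order of this pair no longer held in every mouse.

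Dusp4 (ENSMUSG00000031530, chromosome 8, plus strand, 35274451 to 35287048), a nuclear phosphatase related to Dusp1, ranked 13545th by mean count among the 17583 genes. Its normalized counts were 10, 12 and 28, with exact 95% Poisson intervals of 4.84 to 18.3, 6.06 to 21.3 and 18.8 to 40.2, which cover counting error only. The value of mouse 3 lay above the intervals of both other mice, and its own interval overlapped that of mouse 2 but not that of mouse 1. The mean of Dusp4 was 16.7 ± 9.9 (SD, n = 3), or 6.06 ± 3.59 per kb. This is percentile 5.09 of the genes averaging 10 or more, a cut not far below its own mean, and 17.9 of all listed genes. Per kb, Dusp6 exceeded Dusp4 78.0-fold (log2 ratio 6.29 ± 0.84). In the same 3 libraries the summed normalized counts were 1652, 2012 and 2162 for the 8 mural markers, 3047, 3970 and 4186 for the 8 fibroblast markers, and 448, 679 and 684 for the 7 measured leukocyte markers. The sums were 20338, 21149 and 23989 for the 10 cardiomyocyte markers, also lowest in mouse 1 and highest in mouse 3. Gene by gene these 10 did not all follow their sum, of which Ttn alone gave 7379, 7743 and 10190. In mouse 3, 6 of the 10 were lowest and 3 highest, and in mouse 1, 4 were lowest and 5 highest. Of all 14395 genes averaging 10 or more, 4922 were lowest and 4457 highest in mouse 3, and 5074 lowest and 5344 highest in mouse 1. The sums for the 12 endothelial markers, 28759, 27701 and 27593, ran the other way. The part of these cell types in the Dusp4 counts was not tested.

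**Figure D2:**
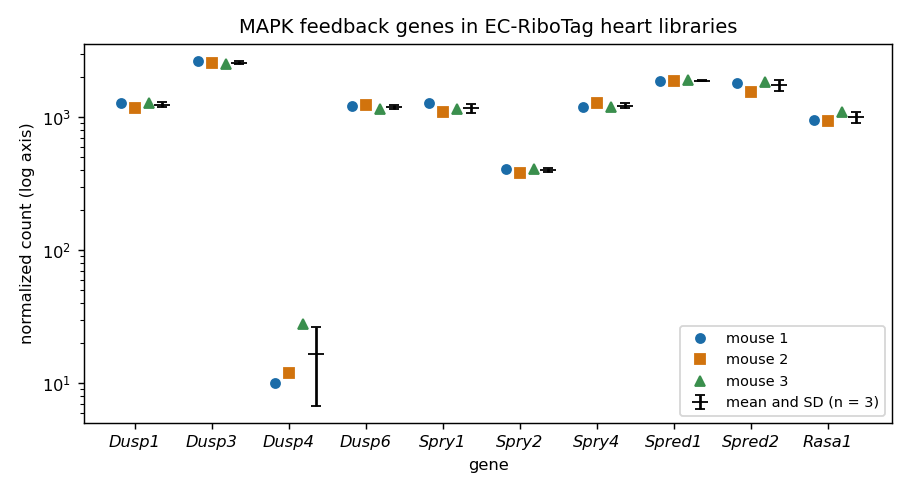
Normalized counts of the 10 genes (log axis) in mouse 1 (circles), mouse 2 (squares) and mouse 3 (triangles), with the mean and SD over 3 mice in black. In 9 genes the 3 mice lie almost on top of each other between 384 and 2645, and only Dusp4, between 10 and 28, shows visible scatter.

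The Sprouty genes were present at unequal levels. Sprouty proteins block the path from receptors to Ras and RAF and also bind the ubiquitin ligase CBL. Spry1 (ENSMUSG00000037211, chromosome 3, plus strand, 37694096 to 37698747) had 1282, 1106 and 1147 normalized counts, highest in mouse 1, with a mean of 1178 ± 92.1 (SD, n = 3) and 436.6 ± 34.1 per kb. Spry4 (ENSMUSG00000024427, chromosome 18, minus strand) had 1189, 1287 and 1197, highest in mouse 2, with a mean of 1224 ± 54.4 and 257.5 ± 11.4 per kb. Thus Spry1 and Spry4 had similar counts, but Spry4 has the longer canonical transcript, 4755 against 2699 bases.

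Spry2 (ENSMUSG00000022114, chromosome 14, minus strand, 106129381 to 106134253) was the lowest of the 3 Sprouty genes, with 407, 384 and 410 normalized counts, a mean of 400.3 ± 14.2 (SD, n = 3) and 123.5 ± 4.4 per kb, close to the middle of all genes (percentile 54.4). Spry1 exceeded Spry2 3.53-fold per kb (log2 ratio 1.82 ± 0.09, SD, n = 3) and Spry4 1.69-fold (0.76 ± 0.16), and the log2 ratio of Spry2 to Spry4 was -1.06 ± 0.11. Each of these orders held in 3 of 3 mice. The remaining Sprouty gene, Spry3, was not in the table, whose genes all reach at least 4 in some library.

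Both Spred genes, whose products bind RAF and bring the Ras inactivator neurofibromin to the membrane, had high counts. Spred1 (ENSMUSG00000027351, chromosome 2, plus strand, 116951855 to 117012760) had 1871, 1882 and 1899 normalized counts, almost equal in the 3 mice, with a mean of 1884 ± 14.1 (SD, n = 3). Spred2 (ENSMUSG00000045671, chromosome 11, plus strand, 19874375 to 19974026) had 1828, 1562 and 1861, lowest in mouse 2, with a mean of 1750 ± 164. Spred1 had the higher mean count but the longer canonical transcript (6331 against 4804 bases), so that it had 297.6 ± 2.2 per kb and Spred2 364.3 ± 34.1. The log2 ratio of Spred1 to Spred2 per kb was -0.29 ± 0.14 (SD, n = 3), below 0 in 3 of 3 mice. Spred3, the third gene of the family, was far lower, with 45, 75 and 99 normalized counts, and 16.9 ± 6.3 per kb.

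Rasa1 (ENSMUSG00000021549, chromosome 13, minus strand, 85362899 to 85437249), the only member that acts on Ras itself, had 959, 931 and 1107 normalized counts, highest in mouse 3, with a mean of 999 ± 94.6 (SD, n = 3) and 199.8 ± 18.9 per kb (percentile 71.2). Nf1, which encodes neurofibromin, the Ras inactivator that Spred proteins recruit, had 471, 616 and 630 normalized counts and 65.7 ± 10.1 per kb. Rasa1 exceeded Nf1 3.06-fold per kb (log2 ratio 1.61 ± 0.21, SD, n = 3), in 3 of 3 mice.

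In order of level per kb the genes were Dusp1, Dusp3, Spry1, Dusp6, Spred2, Spred1, Spry4, Rasa1, Spry2 and Dusp4. Of the 9 neighbouring pairs in this order, 7 had ranges over the 3 mice that did not overlap. The exceptions were Dusp1 with Dusp3 and Spry1 with Dusp6. Divided by the length of all annotated exons, the order began with Dusp3, Dusp1, Dusp6, Spred2 and Spry1 and ended with Spry2, Rasa1 and Dusp4, and 5 of the 9 neighbouring pairs did not overlap. All 8 pairs of genes tested kept their order in 3 of 3 mice, and for each the exact sign-flip permutation test over mice gave a two-sided p = 0.25, also after Benjamini-Hochberg adjustment over the 8 pairs, which is the smallest p that 3 mice allow. The design therefore cannot reach 0.05. No window of 72 bases in the 10 canonical transcripts had an exact copy elsewhere in GRCm39, and no exon of another gene on the same strand overlapped them. Genes on the other strand overlapped 27.5% of the canonical transcript of Dusp6, 18.3% of that of Spry1, 14.3% of that of Dusp3, 9.53% of that of Spry2 and 2.72% of that of Rasa1, which matters only where the strand was misread.

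The spread between mice differed from gene to gene and was smallest in Spred1. A gene was called variable when its mean reached 200 and its coefficient of variation (CV) over the 3 mice exceeded 20%, a rule met by 8.00% of the 9358 genes with such a mean. None of the 9 members with such a mean met it, a count too near that share to set them apart, and Dusp4, with a CV of 59.2% (12.9% without mouse 3), was below the required mean. The CV of the 9 ranged from 0.749% in Spred1 to 9.47% in Rasa1, with a median of 4.44%, against 7.37% over the 9358 genes, and 3 of the 9 lay above the latter. The 9358 genes were not matched to the members for count, and counting error falls as the count rises. By mean count the 9 stood at percentiles 85.9 (Rasa1) to 99.5 (Dusp3) of the 14395 genes averaging 10 or more, apart from Spry2 at 53.7. Among the 9358 genes their percentiles are lower. Spry2, 6653rd by mean count in the table, lay in the lower part of these. The 2 medians therefore do not show that the members are steadier than genes of like count. In Spred1 and Spry2 the CV was below that expected from counting alone, which was 2.30% and 5.00%, as it was in 18.4% of the 9358 genes. Rasa1, Spred2 (CV 9.37%) and Spry1 (7.82%) varied most among the 9. The pattern over the 3 mice set none of the 9 apart. Between 1055 and 3947 of the 9357 other genes averaging 200 or more deviated by the same log2 amount, within 0.1, in each mouse as a given member did, so no gene is named for a like pattern. Dusp1 and Dusp3 had 627.1 and 613.6 normalized counts per kb where, after the removal of duplicates, about 1 read per base is the most a transcript can give, and the part of this in their CV was not tested.

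**Figure D3:**
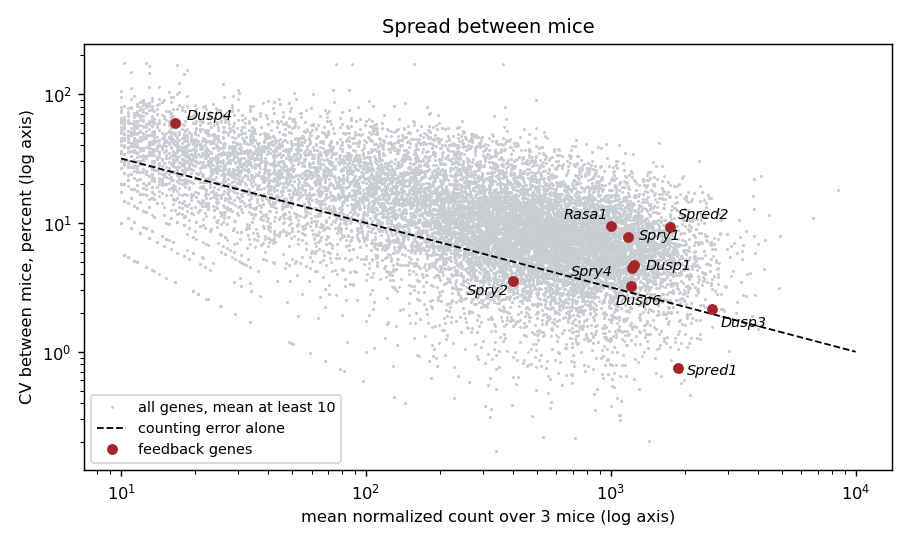
CV between the 3 mice (percent, log axis) against the mean normalized count (log axis) for all genes averaging 10 or more (gray), with the counting error alone as a dashed line. Of the feedback genes (red), Spred1 and Spry2 lie below the line, Dusp3 and Dusp6 close to it, and Rasa1, Spred2 and Spry1 highest among the genes averaging 200 or more.

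The genes of the kinase cascade that these regulators restrain were mostly above the middle of all genes as well. All 17 genes of the Ras-ERK list were in the table with a mean of at least 200, 15 of them above the median of all genes per kb, and the median of the list was 340.4 per kb (median percentile 88.4), beside 331.0 for the 10 regulators. The lowest was the kinase gene Braf with 50.6 ± 6.0 per kb (SD, n = 3). Over all annotated exons, the list had a median of 151.2 per kb, beside 244.8 for the regulators. None of the 17 had a CV over 20%.

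Related regulators outside the 10 had lower medians per kb, although the members and lists were chosen with earlier results of these data known. Of 9 other MAPK phosphatase genes, 8 were in the table and Dusp9 was not, and 4 of the 8 had a mean of at least 200. The list ran from Dusp7, an ERK phosphatase related to Dusp6, with 281.5 ± 23.7 per kb to Dusp14 with 3.70 ± 1.80 per kb, from counts of 5, 15 and 14, and no gene of it reached the level of Dusp6. Of the 9 other Ras GTPase activating proteins, Dab2ip was highest with 375.5 ± 29.7 per kb and Rasal1 lowest, with 2, 4 and 4 normalized counts, and the median of the list was 65.7 per kb. Rasa1 thus lay above the median of its class, and Dab2ip was not the only gene of the class above Rasa1. Over all annotated exons Rasa1 had 72.4 per kb (percentile 58.3), beside a median of 30.5 for the list. The 7 other negative regulators of receptor signaling had a median of 104.0 per kb, from the ERK-regulated repressor Erf with 392.3 ± 22.3 to the ubiquitin ligase gene Cblb with 78.7 ± 6.3. None of the 4, 6 and 7 genes of these lists averaging 200 or more had a CV over 20%.

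**Figure D4:**
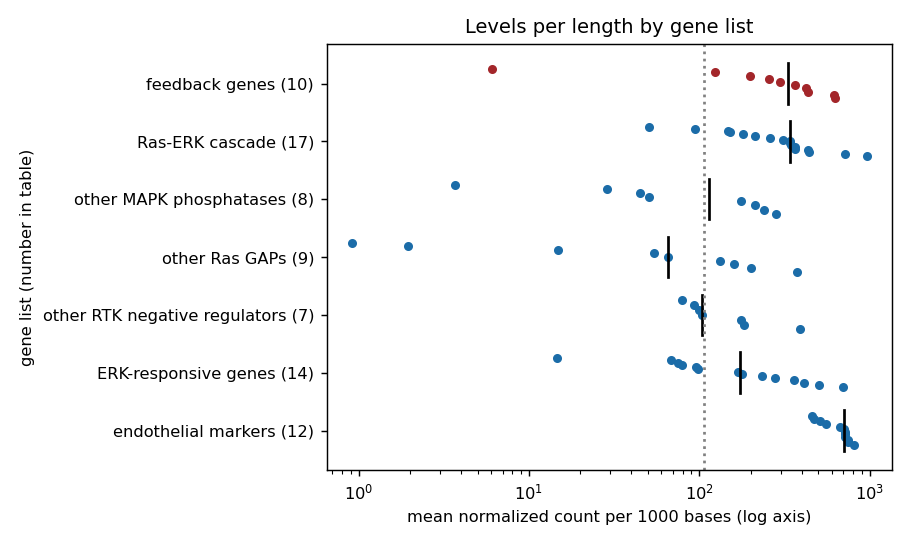
Mean normalized count per 1000 bases of canonical transcript (log axis) for each gene of 7 lists, with the feedback genes in red, the median of each list as a black bar and the median of all genes averaging 10 or more as a dotted line. The median of the feedback genes (331.0) lies beside that of the Ras-ERK cascade (340.4) and below that of the endothelial markers (710.9).

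Some genes that respond to ERK varied more between mice than any of the 9 feedback genes with a sufficient mean. Of 14 such genes, 10 had a mean of at least 200, and 3 of these had a CV over 20%, namely the immediate early genes Fos, Fosb and Egr1, against 0 of 9 feedback genes (8.00% of all genes). Fos had 252, 220 and 652 normalized counts, Fosb 204, 198 and 707, and Egr1 1254, 996 and 1525, each highest in mouse 3 and lowest in mouse 2. The rest of the 10 ERK-responsive genes averaging 200 or more, further immediate early genes among them, had a CV of 20% or less. The median CV of these 10 was 7.66%, so Fos and Fosb do not stand for the list. Dusp1, which belongs to the immediate early genes as well, had 1285, 1180 and 1279 (CV 4.72%). Its highest value was 0.12 above its lowest on the log2 scale. The corresponding difference was 0.06 for Dusp3, 0.09 for Dusp6, 0.25 for Spred2 and for Rasa1, and 1.49 for Dusp4. Of the ERK-responsive genes, Ccnd1, which encodes cyclin D1, was highest with 699.9 ± 44.0 per kb and Fosl1 lowest with 14.7 ± 7.3. Over the 10 feedback genes the mean absolute log2 deviation of a mouse from the mean of the 3 was 0.110, and Dusp4 made up much of it, since without this gene the value was 0.0554. It was 0.0566 between mice 1 and 2 alone, without mouse 3. Of the 10 genes, 5 were highest in mouse 3, 3 in mouse 1 and 2 in mouse 2. Of all 14395 genes averaging 10 or more, 4457 were highest in mouse 3, 5344 in mouse 1 and 4594 in mouse 2. Counts over 10 genes are too few to set a mouse apart. With 1 group of 3 mice, the difference in variation between the lists was not tested.

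**Figure D5:**
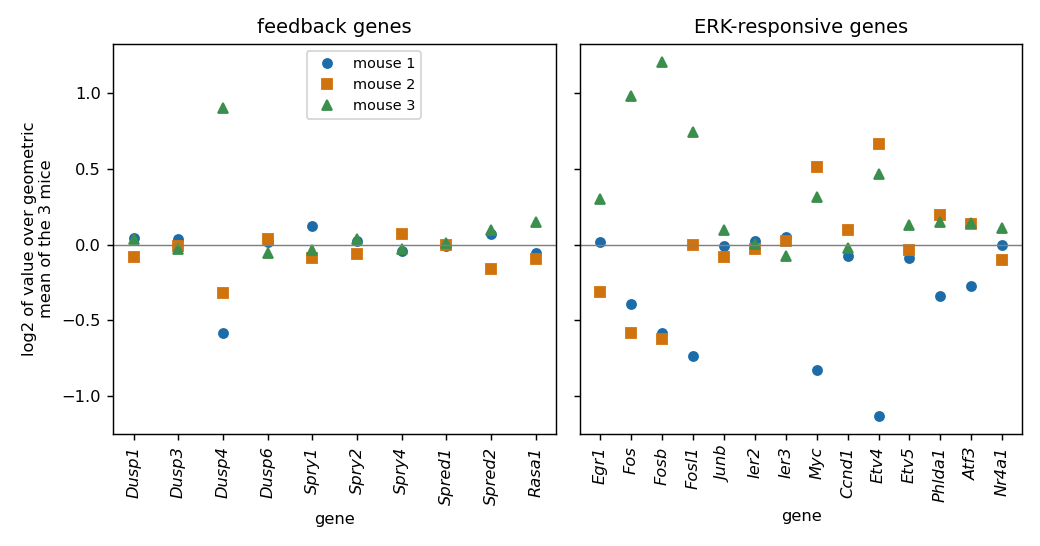
Log2 of the value of each mouse over the geometric mean of the 3 mice, for the 10 feedback genes (left) and the 14 ERK-responsive genes (right), with mouse 1 as circles, mouse 2 as squares and mouse 3 as triangles. Except for Dusp4, the feedback genes stay between -0.16 and 0.15, whereas Fos and Fosb reach 0.98 and 1.21 in mouse 3.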

How the data were processed

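Ribosome-associated RNA from 3 EC-RiboTag hearts was sequenced. Per the labels and the study's methods, the authors trimmed reads with Trimmomatic 0.39, aligned them with STAR 2.7.11a to mm39 (GRCm39), took out duplicates with Picard 3.1.1 as well as reads of several loci, of rRNA and of mitochondria, counted exonic reads on the correct strand with featureCounts 2.0.4 and normalized them with DESeq2 1.36.0. The deposited values are a score in that these normalized counts were rounded to whole numbers. They are not raw counts, and no count model was run on them.

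From these values, means, SDs and CVs over mice were computed with Python 3.11.15, numpy 2.4.6, pandas 2.3.3 and scipy 1.17.1. The reads behind a value were estimated from gaps and doublings that rounding left among low values, which gave 0.977, 1.06 and 0.961 normalized counts per read. The estimate, the CV rule and the rescaling were tested on simulated data. Lengths came from GENCODE M39 (GRCm39), newer than the authors' annotation, in which 17475 of 17583 genes (99.4%) were found. Pairs of genes were compared by within-mouse log2 ratios per length with an exact sign-flip permutation test. From each list the highest and lowest gene per kb, genes with a CV over 20% at a mean of at least 200, genes not in the table and genes of the tested pairs were named, except for some that are not reported here. The members and lists were chosen with earlier results of these data known. Alternatives were other lengths, scalings, backgrounds, filters, pseudocounts and leaving out each mouse.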

Additional observations from a re-analysis of the deposited data

How the results depend on the processing

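The direction of all 8 gene ratios was the same under every alternative tried for them (all annotated exons, pseudocounts of 1 and 5, and each mouse left out), although with all annotated exons 7 and not 8 ratios had 1 sign in every mouse. The number of neighbours in the order of levels that did not overlap was 7 under trimmed-mean scaling, equal totals and the median over mice, 5 with all annotated exons, and 7 to 8 with a mouse left out. The median percentile of the members was 93.8 with all annotated exons and 89.4 among all listed genes, since more low genes are then compared. With all annotated exons, median percentiles were 83.1 for the Ras-ERK cascade, 57.1 for other MAPK phosphatases, 33.1 for other Ras GTPase activating proteins, 64.2 for other negative regulators, 98.3 for endothelial, 89.3 for cardiomyocyte, 15.6 for leukocyte and 33.1 for mural markers. With a mouse left out, that of the Ras-ERK cascade was 87.6 to 88.1. Without a filter on the mean, 1 member (Dusp4) had a CV over 20%, as did 35.9% of all genes, and the CV of Dusp4 was 12.9% without mouse 3. A CV threshold of 10%, chosen after seeing the data, still called 0 members and 32.1% of genes. The mean deviation of a mouse ranged from 0.0566 (without mouse 3) to 0.111 when a mouse was left out, and was 0.0554 without Dusp4, an alternative also chosen after seeing the data. No paired analysis was possible because there is only 1 group. The scaling divisors lay between 0.994 and 1.01. At about 10 to 29 reads a library, counting limits what can be said of Dusp4.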

Other observations

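Several low-count genes of the same families, chosen after their values were seen, were lowest in mouse 1. Dusp2, an inducible nuclear phosphatase best known from leukocytes, had 44, 122 and 98 normalized counts in mice 1, 2 and 3. Dusp5, a nuclear ERK phosphatase, had 77, 139 and 119. Among ERK-responsive genes the transcription factor genes Etv4 and Myc had 72, 251 and 219, and 85, 216 and 188. In the same libraries all 7 measured leukocyte markers were lowest in mouse 1, as were 6 of 8 fibroblast and 5 of 8 mural markers, beside 3 of the 10 feedback genes and 5074 of all 14395 genes averaging 10 or more. The part of these cell types in the counts of Dusp2, Dusp5, Etv4 and Myc was not tested.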
